A study of Mus musculus with 6 samples.

Results

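The genes of homologous recombination and the DNA damage response were examined in the RNA of primary mouse embryonic fibroblasts (pMEFs) with and without an intact Hat1 gene. The group was a list of 47 named genes taken by symbol, with no expression value in the rule but with earlier results of these data known, and all 47 were found among the 17512 genes of the count table. It was divided by role into 20 genes of homologous recombination (13 for recombinase loading and strand exchange, 7 for end resection and DNA unwinding), 11 Fanconi genes, 9 checkpoint and damage signalling genes and 7 end joining genes. HAT1 acetylates newly made histone H4, and the study sequenced RNA to ask whether lower chromatin accessibility without HAT1 came with a loss of transcription. The 3 HAT1 WT lines (HAT1+/+, lines 36, 47 and 78) and the 3 HAT1 KO lines (HAT1-/-, lines 33, 41 and 72) were of the C57bl6 strain. They were grown from mid-gestation embryos whose internal organs had been removed, without immortalization, in the same serum-supplemented medium and with no DNA-damaging treatment described. The labels name each line but not its litter or passage, so the p-values measure the spread between these 6 lines. Of the 10 fibroblast genes fixed as a check on the labels, Col1a1 and Vim were among the strongly expressed genes in every line, and Fap was lowest at 6.26 to 19.99 CPM. Of the 10, 3 were higher and 7 lower in KO, 1 (Thy1) at an unadjusted edgeR p-value under 0.05, where 8.77% of all tested genes were lower. Relative to the WT mean, the list mean in KO line 72 was -0.523 on the log2 scale. The muscle genes Myod1, Myog, Ckm and Myf5 and the neuronal genes Elavl3 and Snap25 were missing from the table. The epithelial markers Epcam, Krt14, Krt5 and Cldn4 were at or near 0. Of the other marker lists, 2 of 4 tested endothelial genes (Pecam1 and Cdh5, both under 1 CPM in every line) were lower in KO at an unadjusted edgeR p-value under 0.05, and 0 of the 4 neural, 1 epithelial and 1 muscle genes tested had such a p-value, where the DESeq2 Wald test gave 2. Some of these genes were expressed, and the neuronal cytoskeleton gene Map2 was at 12.5, 13.2 and 37.98 CPM in WT and at 52.0, 21.8 and 153 CPM in KO, while the muscle gene Des was at 3.44 to 26.9 CPM over all lines.

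A break through both strands of DNA is repaired mainly along 2 routes. Homologous recombination trims the ends, loads a recombinase onto the exposed strand and copies the sister chromatid, so it works in S and G2 phase, and many of its genes are transcribed mostly in dividing cells. End joining religates the ends directly and works throughout the cell cycle. The Fanconi proteins take apart crosslinks between the strands and hand the resulting break to recombination, and the checkpoint kinases ATM and ATR sense the damage and hold the cycle. Many of these proteins are regulated by modification as well as by the amount of their RNA, and only the RNA was measured here.

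Several properties of the libraries bear on the values. Total counts lay between 67720628 and 98786746 per library. Hat1 itself was lower in all 3 KO lines than in all 3 WT lines (10.0 to 10.3 against 17.4 to 23.0 CPM, which are counts relative to the scaled library size), with a fitted level 0.504 times that in WT (edgeR adjusted p-value 0.0376), so the labels held but transcript remained. KO line 72 stood apart, with a mean correlation of 0.971 with the other libraries against 0.983 to 0.987 for the rest. The 6 libraries came from 3 sequencing lanes, with WT line 47 and KO lines 33 and 72 in lane 6, WT line 78 and KO line 41 in lane 7 and WT line 36 alone in lane 8. Y-linked transcripts summed to 183 and 160 CPM in WT lines 36 and 47, to 2.34 CPM in WT line 78 and to at most 0.118 CPM in the KO lines, so the KO lines matched only WT line 78 in lacking most or all Y-linked RNA. The 10 macrophage and blood markers were lower in every KO line, with a summed level of 4991 to 5455 CPM in WT and 2417 to 3009 CPM in KO. In bulk RNA, fewer cells of a type and less RNA per cell cannot be told apart.

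Most members were somewhat higher in the HAT1 KO lines, but none by enough to pass adjustment over all genes. Of the 47 members, all were tested, 39 had a fitted level higher in KO and 8 a lower one, and the median log2 fold change (KO over WT) was 0.15, against 0.01 over all 14773 genes tested. In the edgeR quasi-likelihood test 0 members had an adjusted p-value under 0.05, where 0.528% of all tested genes did. At an unadjusted p-value under 0.05, 11 members (23.4%) were higher in KO, where 5.88% of all tested genes were, and 0 were lower, where 8.77% of all tested genes were. With a change of at least 1.5-fold added, 6 members remained (Bard1, Rad51ap1, Fanca, Fanci, Brip1 and Polq), where 1.5% of all tested genes met both conditions. In 13 members (27.7%) every KO line lay above every WT line, a separation seen in 9.59% of all tested genes, and in 0 members did every KO line lie below every WT line, as 12.4% of all tested genes did. The DESeq2 Wald test, run as an alternative, gave 5 members an adjusted p-value under 0.05, and these were Bard1, Rad51ap1, Blm, Fanca and Brip1, with values between 0.00553 and 0.0385. That test called 871 genes in all, against 78 in edgeR, and voom with sample quality weights called 267 genes and 0 members. At an unadjusted p-value under 0.05 these tests gave 12 and 14 members higher and 0 lower. Over all tested genes, 2442 and 2610 had such a value in either direction. With lane as a term in the edgeR fit, 3 members were higher at that p-value and 2 with 1.5-fold as well. In that fit 931 of 14773 genes had such a p-value in either direction, against 2164 in the main fit. Leaving out 1 line gave 6 to 16 and 3 to 14 members higher, where 1439 to 2786 genes had such a p-value in either direction.

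**Figure D1:**
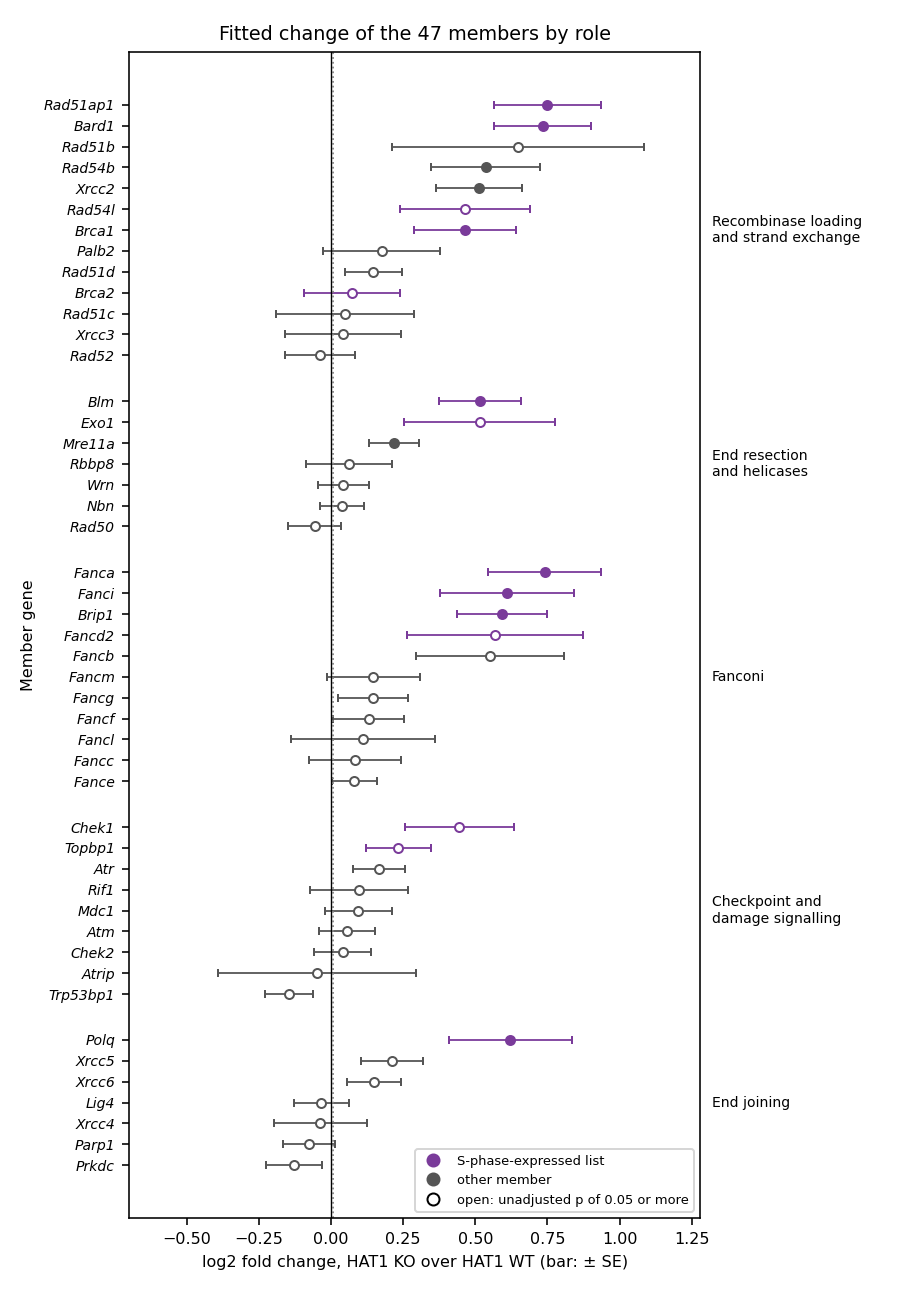
Fitted log2 fold change of each of the 47 members (horizontal axis, HAT1 KO over HAT1 WT, bars ± SE), ordered within 5 role groups. Filled points have an unadjusted p-value under 0.05, purple marks the 14 members listed as transcribed mainly in S phase, and the dotted line is the median of all tested genes at 0.01. The 11 filled points lie between 0.22 and 0.75, and the end joining genes other than Polq lie between -0.13 and 0.21.

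The proteins that load the recombinase and carry out strand exchange included the member with the highest log2 fold change and the one with the lowest p-value. Of these 13 genes, 12 were higher in KO, as were 7608 of all 14773 tested genes, 5 (38.5%) had an unadjusted p-value under 0.05 in that direction, against 5.88% of all tested genes, and the group median was 0.46 on the log2 scale. Rad51ap1, whose protein stimulates joint formation by the recombinase, stood at 3.37, 4.65 and 4.39 CPM in WT lines 36, 47 and 78 and at 7.83, 7.13 and 5.90 CPM in KO lines 33, 41 and 72. The genotypes did not overlap, and the log2 fold change of 0.75 ± 0.18 (SE; 1.68-fold) was the highest of the 47 (edgeR adjusted p-value 0.166). Bard1, the partner with which BRCA1 forms a ubiquitin ligase, was at 6.27, 9.12 and 7.86 CPM in WT and at 14.6, 11.8 and 12.2 CPM in KO. All KO lines were above all WT lines again, with a log2 fold change of 0.73 ± 0.17 (1.66-fold) and an unadjusted edgeR p-value of 0.00429, the lowest among the members, which adjustment over all genes took to 0.145.

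Brca1, which directs ends towards recombination and recruits the loading complex, was at 11.9, 18.9 and 15.1 CPM in WT and at 23.0, 20.5 and 19.8 CPM in KO. WT line 47 came within 0.876 CPM of the lowest KO line, and the log2 fold change was 0.46 ± 0.18 (edgeR adjusted p-value 0.31). The excess of Brca1 over its partner Bard1 was smaller in all 3 KO lines than in all 3 WT lines, but the difference was not tested. Per kilobase of exon, the ratio of Brca1 to Bard1 was 1.26, 1.37 and 1.27 in WT lines but 1.04, 1.15 and 1.07 in KO lines, or 1.30 ± 0.0629 against 1.09 ± 0.0575 (SD, n = 3 each), without overlap. The genotypes overlapped in the same ratio for Xrcc6 to Xrcc5, Rad50 to Nbn, Fanci to Fancd2, Xrcc4 to Lig4, Atm to Atr and Atr to Atrip. They were narrowly apart for Rad50 to Mre11a. For single genes, every KO line lay above every WT line in 9.59% of all tested genes and below in 12.4%. The share among ratios of gene pairs was not measured. Brca2, which delivers the recombinase to the strand, had overlapping lines. It was at 10.8, 16.1 and 15.8 CPM in WT and at 15.5, 14.2 and 15.3 CPM in KO, where all 3 KO values fell between the extremes of WT, with a log2 fold change of 0.07 ± 0.17 (edgeR adjusted p-value 0.874). Palb2, which bridges BRCA1 and BRCA2, was at 2.57 to 3.45 CPM in WT and 2.75 to 3.78 CPM in KO.

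The recombinase paralogs differed in their values. Xrcc2 was at 5.22, 5.89 and 4.88 CPM in WT and at 8.77, 7.22 and 6.81 CPM in KO, with no overlap and a log2 fold change of 0.51 ± 0.15 (edgeR adjusted p-value 0.216). Rad51d, which sits beside XRCC2 in one paralog complex, was at 13.05 to 13.07 CPM in the WT lines and at 13.7, 13.6 and 16.1 CPM in KO, a difference of 0.15 ± 0.10 in which the lines were apart and KO line 72 was the highest. Rad51c and Xrcc3, members of the paralog complexes as well, had log2 fold changes of 0.05 ± 0.24 and 0.04 ± 0.20, and their lines overlapped. Rad51b had 0.65 ± 0.44, but it was among the lowest members, at 0.345 to 0.894 CPM in WT and 0.804 to 1.44 CPM in KO. Of the translocases that act on the recombinase filament, Rad54b was at 2.19, 3.14 and 2.43 CPM in WT and at 3.72, 3.64 and 3.89 CPM in KO (log2 fold change 0.54 ± 0.19, edgeR adjusted p-value 0.282), though 35.9% of its exon bases are shared with Fsbp or another overlapping gene. Rad54l had 0.47 ± 0.23 with overlapping lines, and Rad52, an annealing factor, had -0.04 ± 0.12.

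**Figure D2:**
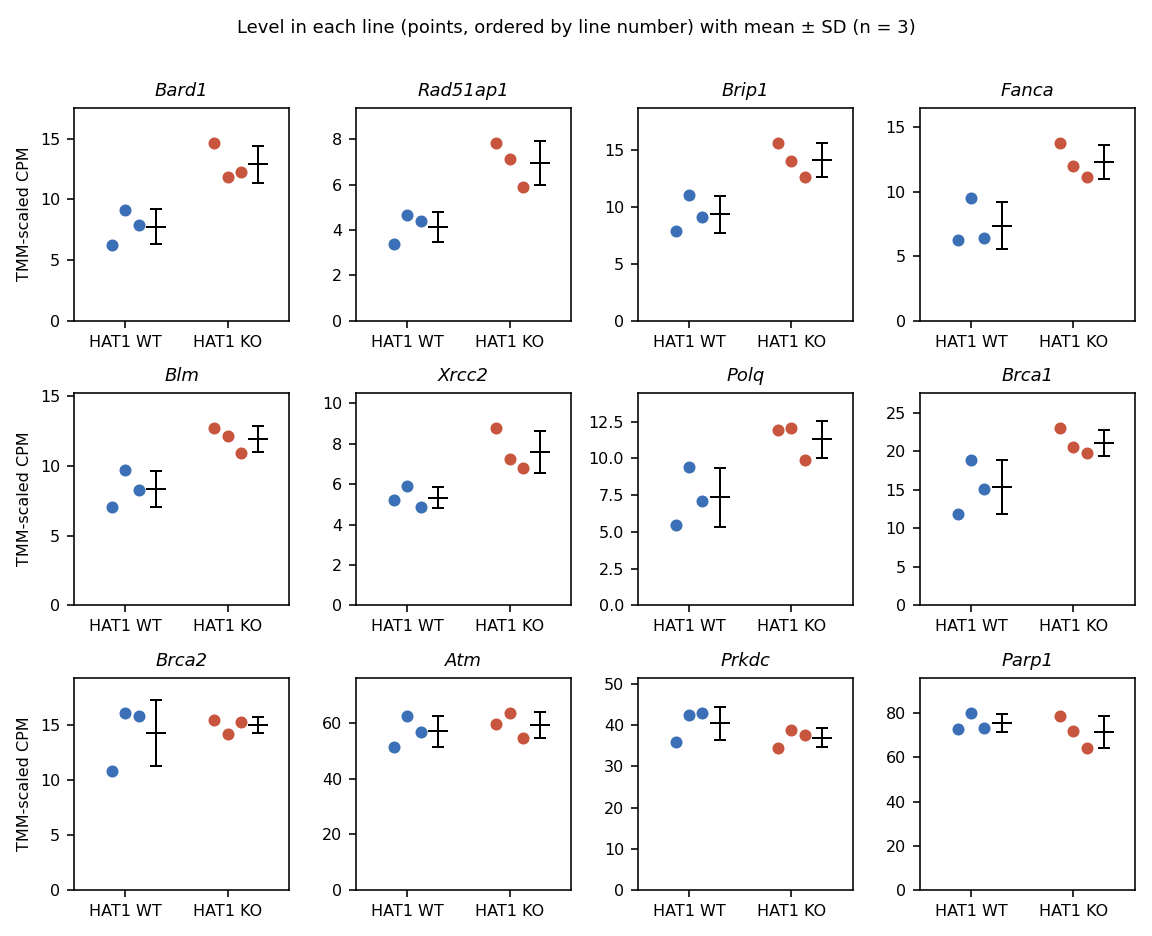
Level of 12 members in each line (vertical axes, TMM-scaled CPM from 0; blue points HAT1 WT lines 36, 47 and 78, red points HAT1 KO lines 33, 41 and 72, in that order), with mean ± SD (n = 3) beside them. The lines of the genotypes are apart in the upper 8 genes, from Bard1 to Brca1, and overlap in Brca2, Atm, Prkdc and Parp1.

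The promoters of members were searched for motifs of cell cycle transcription, since many members are known for expression in dividing cells. RefSeq windows on GRCm38.p6, from 250 bases before to 50 bases after each annotated start, were matched for 36 of the 47 members. The motifs were that of E2F factors (TTTNNCGC with C or G at each N) and the cell cycle homology region, CHR (TTTGAA), each on both strands, and these letters cannot overlap each other. The windows below are those of the 4 members with the lowest p-values that hold a match before the start in a window with at most 30 annotated exon bases, written 5′ to 3′ on the strand of the gene with the motifs in capitals.
Bard1, chr1:71103148-71103222, minus strand: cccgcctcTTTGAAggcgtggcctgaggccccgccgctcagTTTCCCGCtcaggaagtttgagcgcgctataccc
Polq, chr16:37011536-37011575, plus strand: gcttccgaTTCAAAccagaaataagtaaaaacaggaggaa
Topbp1, chr9:103305172-103305231, plus strand: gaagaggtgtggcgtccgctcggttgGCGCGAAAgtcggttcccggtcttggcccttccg
Mdc1, chr17:35841456-35841497, plus strand: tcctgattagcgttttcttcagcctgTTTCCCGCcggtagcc
The Bard1 window holds a CHR and an E2F match in the sense orientation, Polq a CHR match in the antisense orientation, Topbp1 an antisense E2F match and Mdc1 a sense one. The E2F letters occurred in the windows of 8 of 36 members (22.2%: Brca2, Bard1, Rad51c, Fancg, Chek2, Topbp1, Mdc1 and Xrcc6), against 2.6% of 27025 genes with a window. They were found in 1 of the 9 matched members with an unadjusted p-value under 0.05, which was Bard1, and in 7 of the other 27 (25.9%). The CHR letters occurred in 3 of 36 members (8.33%: Bard1, Rad51b and Polq) and in 20.2% of all genes. They were found in 2 of the 9 members with such a p-value (22.2%: Bard1 and Polq) and in 1 of the other 27 (3.7%). Polq held a further CHR match, in the sense orientation, with its first base at -3 from the start. These are matches of letters, not sites shown to be bound.

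Among the genes of end resection and unwinding, the helicase Blm stood out and the subunits of the core nuclease complex had unlike values. Blm, which dissolves joint molecules and helps to trim ends, was at 7.04, 9.65 and 8.27 CPM in WT and at 12.7, 12.1 and 10.9 CPM in KO. The genotypes did not overlap, and the log2 fold change was 0.52 ± 0.14 (1.43-fold, edgeR adjusted p-value 0.201). Mre11a, the nuclease of the complex that first binds an end, was at 23.1, 26.9 and 24.3 CPM in WT and at 29.6, 29.8 and 27.1 CPM in KO, a small separation of 0.22 ± 0.09 in which WT line 47 and KO line 72 nearly met (edgeR adjusted p-value 0.328). Its partners Rad50 and Nbn had log2 fold changes of -0.06 ± 0.09 and 0.04 ± 0.08, with overlapping lines. The per-kilobase ratio of Rad50 to Mre11a was 1.718, 1.692 and 1.898 in WT and 1.338, 1.374 and 1.689 in KO, so that KO line 72 lay just under the lowest WT line. Exo1, the exonuclease of long-range resection, had 0.52 ± 0.26 with WT line 47 inside the KO range, and Rbbp8, which starts resection, and the helicase Wrn had 0.06 ± 0.15 and 0.04 ± 0.09.

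All 11 Fanconi genes had fitted levels higher in KO, 3 of them (27.3%) at an unadjusted p-value under 0.05, against 5.88% of all tested genes. With lane as a term 1 (Fanca) kept such a p-value, where 931 of 14773 genes had one in either direction. The group median was 0.15, and 0.35 without KO line 72. Fanca, a subunit of the core complex that ubiquitinates FANCD2 and FANCI, was at 6.22, 9.50 and 6.39 CPM in WT and at 13.8, 11.98 and 11.2 CPM in KO. The lines were apart, and the log2 fold change was 0.74 ± 0.20 (1.67-fold, edgeR adjusted p-value 0.191). Brip1, the helicase that binds BRCA1, was at 7.88, 11.1 and 9.09 CPM in WT and at 15.6, 14.1 and 12.6 CPM in KO, also apart, with a log2 fold change of 0.59 ± 0.16 (1.51-fold, edgeR adjusted p-value 0.188). Fanci was at 4.61, 6.57 and 4.22 CPM in WT and at 9.07, 8.33 and 6.12 CPM in KO. Its lines overlapped, since KO line 72 was under WT line 47, and the log2 fold change was 0.61 ± 0.23 (edgeR adjusted p-value 0.31). Fancd2, the partner of FANCI, had the same pattern at 6.18, 10.2 and 6.84 CPM in WT and 14.2, 12.96 and 7.32 CPM in KO (0.57 ± 0.30), and the per-kilobase ratio of Fanci to Fancd2 was 0.920 ± 0.0942 in WT and 0.971 ± 0.154 in KO. The other core complex genes differed less. Fancb had 0.55 ± 0.26, while Fancc, Fance, Fancf, Fancg, Fancl and the translocase gene Fancm lay between 0.08 and 0.15. Exon bases are shared with a neighbouring gene for Fanci (16% with Polg), Fanca (10.5% with Zfp276), Fancc (18.6%), Fancf (15%) and Fancl (13.7%), and strand use in counting is not known.

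**Figure D3:**
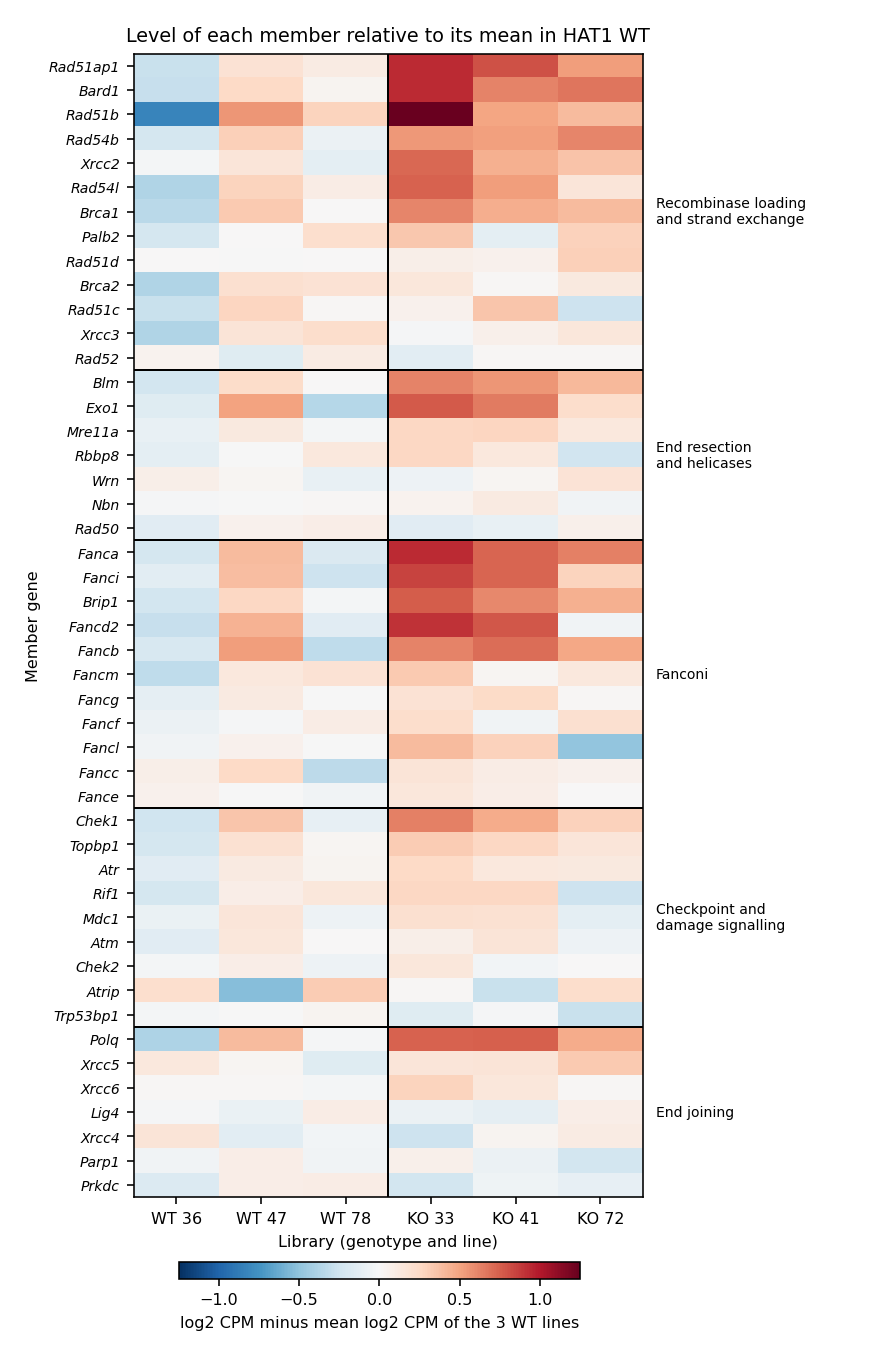
Each row is a member, each column a line, and the colour is the log2 CPM minus the mean log2 CPM of the 3 HAT1 WT lines, with rows grouped by role. WT line 36 is the lowest of the 6 lines in 23 of the 47 rows and KO line 33 the highest in 25.

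Most checkpoint and damage signalling genes had small fitted differences between the genotypes. Of 9 genes, 7 had higher and 2 lower fitted levels in KO, and 0 had an unadjusted p-value under 0.05 in edgeR (1, Chek1, in DESeq2 and in voom). In edgeR 5.88% of all tested genes were higher and 8.77% lower at that p-value, so a count of 0 among 9 genes lies near these shares. The median was 0.09, or 0.20 without KO line 72 and 0.04 without KO line 33. Atm, the kinase that responds to breaks, was at 51.4, 62.4 and 56.8 CPM in WT and at 59.5, 63.5 and 54.4 CPM in KO. These ranges overlapped almost wholly (log2 fold change 0.06 ± 0.10, edgeR adjusted p-value 0.833). Atr, the kinase that responds to exposed single strands and stalled forks, was at 24.7, 29.4 and 27.8 CPM in WT and at 32.3, 29.9 and 29.7 CPM in KO. Every KO line was above every WT line, but the gap was 0.298 CPM and the log2 fold change 0.17 ± 0.09 (edgeR adjusted p-value 0.456). Chek1, the effector kinase of ATR, was at 5.44, 8.23 and 6.03 CPM in WT and 10.0, 8.94 and 7.87 CPM in KO (0.45 ± 0.19), with KO line 72 under WT line 47. Topbp1, the activator of ATR, had 0.23 ± 0.11. Chek2, the effector of ATM, the chromatin scaffold Mdc1 and Rif1, which opposes resection, lay between 0.04 and 0.10, and Atrip, the partner of ATR, had -0.05 ± 0.34 at under 1 CPM. Trp53bp1, whose protein shields ends from resection, had the lowest log2 fold change of the 47, at 49.2, 49.7 and 51.3 CPM in WT and 44.95, 49.7 and 41.2 CPM in KO (-0.15 ± 0.08, edgeR adjusted p-value 0.471). It shares 15% of its exon bases with Tubgcp4 on the other strand.

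End joining was the only role group whose median was below 0, at -0.03, with 3 genes higher and 4 lower, but the sign turned with lane as a term (0.07) and when any line but WT line 47 was left out (0.01 to 0.07). Polq, the polymerase of the microhomology-mediated route, differed from the rest of its group. It was at 5.49, 9.44 and 7.09 CPM in WT and at 11.9, 12.1 and 9.86 CPM in KO, with no overlap and a log2 fold change of 0.62 ± 0.21 (1.54-fold, edgeR adjusted p-value 0.274). Prkdc, the catalytic subunit of DNA-PK, was at 35.8, 42.5 and 42.9 CPM in WT and at 34.4, 38.9 and 37.6 CPM in KO (-0.13 ± 0.10, edgeR adjusted p-value 0.585). Parp1, the sensor that marks breaks with poly(ADP-ribose), was at 72.8, 79.9 and 73.1 CPM in WT and at 78.5, 71.6 and 64.0 CPM in KO (-0.08 ± 0.09, edgeR adjusted p-value 0.744). Lines overlapped in both. The Ku subunits Xrcc5 and Xrcc6, which cap the ends, had log2 fold changes of 0.21 ± 0.11 and 0.15 ± 0.09, with the lines apart in Xrcc5 and overlapping slightly in Xrcc6. Lig4, the ligase, and its cofactor Xrcc4 were at -0.03 ± 0.10 and -0.04 ± 0.16.

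The levels themselves ranged widely within each role group. In CPM per kilobase of exon (RPKM, mean ± SD of the 3 WT lines), Parp1 was highest at 14.2 ± 0.757. Nbn (7.90 ± 0.101), Rad50 (7.39 ± 0.598), Mdc1 (6.60 ± 0.597), Topbp1 (6.58 ± 0.913) and Xrcc5 (6.34 ± 0.613) followed. From Nbn to Xrcc5 the mean ± SD of each overlapped that of the next, but that of Parp1 did not overlap that of Nbn. Brca1 (1.79 ± 0.410), Bard1 (1.37 ± 0.252) and Brca2 (1.04 ± 0.218) lay in the lower part of the order. Palb2 (0.410 ± 0.0595), Rad51b (0.175 ± 0.0754) and Atrip (0.0596 ± 0.0172) were lowest, and Atrip shares 16% of its exon bases with Trex1. Of the 11 members with an unadjusted p-value under 0.05, Mre11a was the only one with more than 2 RPKM in WT.

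**Figure D4:**
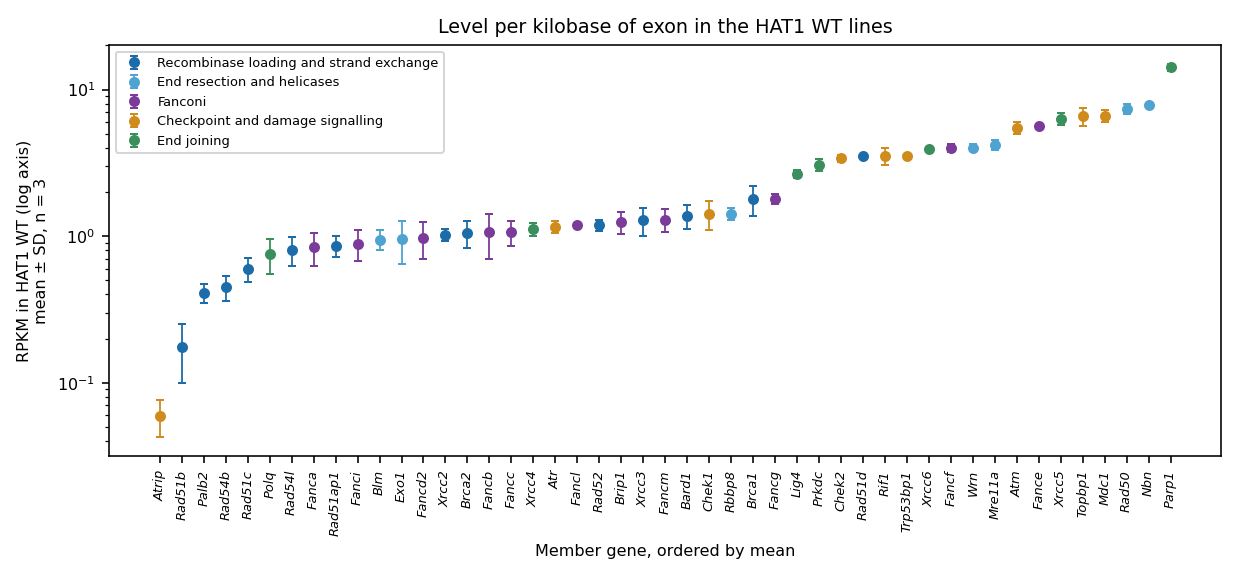
Level of each member per kilobase of exon in the HAT1 WT lines (vertical log axis, RPKM, mean ± SD, n = 3), ordered by mean and coloured by role. Values run from 0.0596 for Atrip to 14.2 for Parp1, and most recombination and Fanconi genes lie near or below 2.

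The members were also divided by the timing of their expression in the cell cycle. A list of 14 members taken to be transcribed mainly in S phase (Brca1, Brca2, Bard1, Brip1, Rad51ap1, Rad54l, Exo1, Blm, Fanca, Fancd2, Fanci, Chek1, Topbp1 and Polq) cut across all the role groups. Timing was not measured here, and the list was chosen with earlier results of these data known. The E2F letters were found in 3 of its 12 members with a promoter window (25.0%), against 8 of 36 over all members (22.2%). The CHR letters were found in 2 of these 12 (16.7%), against 3 of 36 (8.33%). All 14 listed members had higher fitted levels in KO, 8 (57.1%) at an unadjusted p-value under 0.05, against 5.88% of all tested genes. With lane as a term 3 (Bard1, Rad51ap1 and Fanca) kept such a p-value, where 931 of 14773 genes had one in either direction. In the main fit their median log2 fold change was 0.54, with a range from 0.07 to 0.75 over the 14. Of the other 33 members, 25 were higher and 8 lower, 3 (9.09%: Rad54b, Xrcc2 and Mre11a) had such a p-value, and the median was 0.08. The summed level of the 14 was 150.0, 215 and 178 CPM in WT lines 36, 47 and 78 and 263, 243 and 216 CPM in KO lines 33, 41 and 72, so the lowest KO line and the highest WT line nearly met. WT line 36 was the lowest line in 12 of the 14 genes and KO line 33 the highest in 12.

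A list of 16 proliferation markers that shares no gene with the members was measured in the same lines. All 16 had higher fitted levels in KO, 10 at an unadjusted p-value under 0.05 and 0 at an adjusted one in edgeR (3 in the DESeq2 Wald test), with a median of 0.70. Their summed level was 618, 927 and 651 CPM in WT and 1286, 1083 and 942 CPM in KO, again with WT line 47 and KO line 72 close together. Relative to the WT mean, the mean log2 level of the 16 markers was -0.19, 0.41 and -0.22 in WT lines 36, 47 and 78 and 0.93, 0.65 and 0.34 in KO lines 33, 41 and 72, so that WT line 47 was above KO line 72. That of the 14 S-phase members was -0.25, 0.29 and -0.04 in WT and 0.67, 0.54 and 0.32 in KO. The KO lines had the same order in both, and WT line 47 was the highest WT line in both, but WT lines 36 and 78 changed places. The other 33 members had that KO order too, at 0.15, 0.11 and 0.05, with WT line 47 the highest WT line at 0.07. So did the Fanconi and the checkpoint genes, so the order was not particular to these 2 lists. The markers named here for their function are Mki67, an antigen of cycling cells, at 81.7, 143 and 116 CPM in WT and 176, 139 and 114 CPM in KO, and Top2a, the topoisomerase of mitotic chromosomes, at 107, 156 and 105 CPM in WT and 247, 200 and 168 CPM in KO. The share of cycling cells was not measured, and its part in the members' values was not tested. The macrophage and blood markers differed between the same lines, with all 10 lower in KO. Of these, 6 had an edgeR adjusted p-value under 0.05, as did 0.528% of all tested genes. The part of these markers in the members' values was not tested. The 10 targets of p53, which respond to DNA damage, were divided in direction. Of these, 4 were higher and 6 lower, 0 had an unadjusted p-value under 0.05 in edgeR, DESeq2 or voom, and the median was -0.02. At that p-value in edgeR, 5.88% of all tested genes were higher and 8.77% lower, so a count of 0 among 10 genes lies near these shares. Cdkn1a, the p53-induced inhibitor of the cell cycle, was at 418, 350 and 317 CPM in WT and at 314, 336 and 427 CPM in KO.

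**Figure D5:**
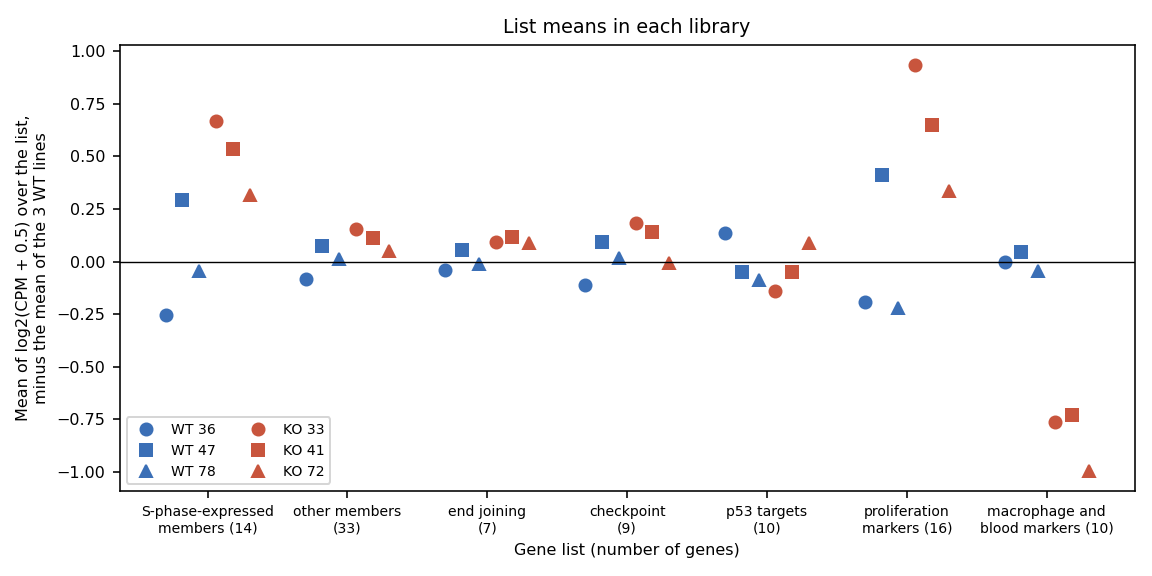
Mean of log2(CPM + 0.5) over each gene list in each line, minus the mean of the 3 HAT1 WT lines (vertical axis, log2), with blue for WT and red for KO and a marker shape for each line. The S-phase-expressed members and the proliferation markers are highest in KO line 33 (0.67 and 0.93), then in KO lines 41 and 72. The other members have that order too (0.154, 0.114 and 0.05 in KO lines 33, 41 and 72). The macrophage and blood markers are lower in all KO lines (-0.731 to -0.995).

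The S-phase members were also compared within lanes and against the WT line that shares the absence of Y-linked RNA with the KO lines, a comparison chosen after its values were seen. In lane 6, with 1 WT and 2 KO lines, 11 of the 14 were higher in KO with a median log2 difference of 0.17, and in lane 7, with 1 line each, 13 of 14 were higher with a median of 0.58. The other 33 members had medians of 0.03 and 0.10 in these lanes. Against WT line 78 alone, the 3 KO lines had a median difference of 0.60 over the 14, with 13 higher, and 0.05 over the other 33. Of all 14773 tested genes, 7784 were higher in KO within lane 6, 7153 within lane 7 and 7193 against WT line 78. Their medians were 0.014, -0.011 and -0.009. Bard1 was higher by 0.53 within lane 6 and by 0.56 within lane 7, Rad51ap1 by 0.50 and 0.64, and Fanca by 0.37 and 0.86. These are differences of log2(CPM + 0.5) and carry no test, since a lane holds at most 1 WT line. With lane as a term in the edgeR fit, 3 members kept an unadjusted p-value under 0.05, and they were Bard1, Rad51ap1 and Fanca. In that fit 931 of 14773 genes had such a p-value in either direction, so 3 of 47 members lies near the share of all tested genes. Leaving out WT line 36, WT line 78, KO line 33 or KO line 41 left 6 members higher at that p-value and leaving out WT line 47 or KO line 72 gave 16, against 11 with all lines. Bard1, Rad51ap1, Xrcc2, Blm, Fanca and Brip1 were among them in every one of these 6 fits. Over all genes tested, 1439 to 2786 had such a p-value in either direction in these fits, against 2164 with all lines.

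Further genes of the same pathways that are not members, 57 in all, had a median of 0.07, with 42 higher and 15 lower in KO. At an unadjusted p-value under 0.05, 9 (15.8%) were higher and 1 was lower in edgeR, where 5.88% and 8.77% of all tested genes were, and 0 passed adjustment, against 1 higher and 1 lower in the DESeq2 Wald test. In edgeR 5 of 20 recombination and resection genes were higher, against 1 of 12 Fanconi and crosslink repair genes, 2 of 16 signalling genes and 1 of 9 end joining genes. The single-strand binding subunit gene Rpa1 had the lowest p-value, at 76.2, 88.9 and 75.1 CPM in WT and 111, 102 and 107 CPM in KO (log2 fold change 0.41 ± 0.09, edgeR adjusted p-value 0.119). Its partner Rpa2 had 0.45 ± 0.15, the nuclease genes Gen1 and Eme1, which resolve joint molecules, 0.61 ± 0.20 and 0.82 ± 0.29, the replication checkpoint mediator Clspn 0.52 ± 0.18, the ubiquitin ligase Rad18 0.46 ± 0.14 and the ligase Lig3 0.19 ± 0.07. The 1 gene in the opposite direction was Dclre1c, the nuclease Artemis of end joining, at 7.04, 7.94 and 7.73 CPM in WT and at 5.29, 5.25 and 5.64 CPM in KO. Every KO line was under every WT line, with a log2 fold change of -0.49 ± 0.11 (0.713-fold, edgeR adjusted p-value 0.146).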

How the data were processed

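RNA was extracted from 6 pMEF lines, 3 HAT1 WT and 3 HAT1 KO, and libraries were made with a TruSeq kit. The authors deposited 1 table of raw read counts per gene with no normalization. The submitters' processing notes name mm10 and edgeR, and the study refers to an earlier article for its RNA-seq methods. The aligner, the counter and the use of strand are not given in the sources used here. Columns with the authors' own comparison (fold change, mean level, F, p-value and q-value) were not used.

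All 17512 Ensembl identifiers were found in GENCODE M21 (GRCm38). The main test was the quasi-likelihood test of edgeR 4.0.16 (R 4.3.3; glmQLFit, glmQLFTest), two-sided, on the 14773 genes that filterByExpr kept, with TMM scaling, genotype as the sole term and Benjamini-Hochberg adjustment over all tested genes. SEs of log2 fold changes were derived from the F statistic and are approximate. CPM and RPKM use the TMM-scaled library size and the union of exons. For 3 lines against 3, the smallest p-value of an exact permutation test is 0.1. Total counts were 67720628 to 98786746 per library, so that counting error bears mainly on the few lowest members, such as Atrip and Rad51b. The spread between lines, which the quasi-likelihood fit estimates for each gene, sets the precision of the others. The common dispersion over all tested genes was 0.0747. The fit was tested on simulated data.

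The alternatives were DESeq2 size factors, library size alone, the DESeq2 1.42.0 Wald test, limma 3.58.1 voom with sample quality weights, no filter, a mean count of at least 50, lane as a factor, and each line left out. Values were given for members with an unadjusted p-value under 0.05 and for Brca1, Brca2, Atm, Atr, Prkdc and Parp1, and of other pathway genes the 8 with the lowest p-values were named. Other members were described after their values were seen. Promoters were shown for the 4 members with the lowest p-values and a match before the start, passing over Xrcc6 and Fancg, whose windows lay over annotated exons. The members and lists were chosen with earlier results of these data known.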

Additional observations from a re-analysis of the deposited data

How the results depend on the processing

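The count of members with an adjusted p-value under 0.05 was 0 in edgeR and 5 in the DESeq2 Wald test, and the cause was not tested. With lane as a factor, 3 members in place of 11 had a higher level with an unadjusted p-value under 0.05, 2 in place of 6 with at least 1.5-fold, and the end joining median was 0.066 in place of -0.034. Over all tested genes, 931 in place of 2164 had such a p-value in either direction. Leaving out 1 line at a time gave 6 to 16 members higher at that p-value, 3 to 14 with 1.5-fold, and 0 to 1 lower (Trp53bp1, without KO line 41). Over all genes tested in these fits, 1439 to 2786 had such a p-value in either direction. The lowest counts came without WT line 36, WT line 78 or KO line 33, and the highest without WT line 47 (16 and 14) or KO line 72 (16 and 11). Over the same fits the medians were 0.16 to 0.25 for homologous recombination, 0.11 to 0.35 for Fanconi, 0.039 to 0.20 for checkpoint, -0.023 to 0.065 for end joining, 0.43 to 0.78 for the S-phase members and 0.06 to 0.14 for the other members. Within lane 6, a comparison added after the data were seen, the S-phase median was 0.17.

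No member was called lower in any other setting. Of the log2 fold changes of the 16 members given in full, 173 values under an alternative kept their direction and side of the threshold and 30 lost the threshold. The direction turned in 5, all of members with no call: Brca2 and Atm with lane (-0.104 and -0.008) and without WT line 36, and Parp1 without KO line 72. Leaving out 1 line gave -0.086 to 0.177 for Brca2, -0.008 to 0.135 for Atm and -0.15 to 0.008 for Parp1. Of the 47 members, 31 had the same direction in all 14 fits. No paired analysis was possible because the genotypes share no replicate numbers. Counts for members that share exons with neighbours remain uncertain without the strand.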
